A study of Mus musculus with 6 samples.

Results

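Fatty acid oxidation genes of the jejunal mucosa were examined in ISR2 mice, in which the transcription factor SREBP2 is overactive in the intestine, and in their wild type littermates. The list holds 40 genes of mitochondrial and peroxisomal fatty acid oxidation and of its control, taken by gene symbol, and 39 of them had a probe set assigned to 1 symbol, out of 19938 genes tested. Cpt1b was not analysed here. Both groups were C57/BL mice aged 8 to 10 weeks on regular chow. The ISR2 group carried the transgene and the wild type group did not, the tissue was scraped from the jejunum, and each group had 3 arrays. Neither the construct nor the promoter driving it is named in the sources used here. Whether the 3 arrays of a group stand for 3 mice is not stated in the labels. The p-values then refer only to the variation among these samples, which may be technical.

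Long-chain fatty acids enter mitochondria as carnitine esters and are then shortened in repeated cycles of dehydrogenation, hydration, a further dehydrogenation and thiolysis. Peroxisomes run a parallel cycle with their own enzymes, which act mainly on very long-chain, branched and dicarboxylic fatty acids. Many genes of both routes are known targets of PPAR alpha, a nuclear receptor activated by fatty acids, and in the small intestine the route is mainly a function of enterocytes. SREBP2 is known for the opposite side of lipid metabolism, the genes of cholesterol synthesis and uptake.

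Most genes of the pathway did not pass the test between the groups, and no role had more than 1 call. Of the 39 genes, 3 rose in ISR2 mucosa (Ehhadh, Acadl and Bdh1), 1 fell (Angptl4) and 35 did not pass an adjusted p of 0.05 in limma, a linear model fitted to all genes with Benjamini-Hochberg adjustment over all of them. Among all genes tested, 3.02% passed that threshold, with 1.79% rising and 1.23% falling. The share of the list that passed was 10.3%. The list is mostly of bright genes, with 36 of the 39 at or above the median gene by mean level. Tested among only those brighter genes, 3 of the list rose and 1 fell, beside 362 rises and 259 falls in all. The shares of all genes given here and below were not matched for level. The median log2 change of the list was 0.0038, beside -0.062 for all genes tested, and it lay between -0.057 and 0.11 over all alternatives. The 95% interval of the change lay wholly inside 2-fold in either direction for 33 of the 39 genes and inside 1.5-fold for 16. Among all 19938 genes tested these counts were 18851 and 13491, so both shares were smaller in the list than among all genes. With arrays weighted by their fit, 3 genes of the list fell instead of 1, Acat1 and Pdk4 being added to Angptl4. The weights were 4.06, 0.40 and 0.67 for ISR2 replicates 1, 2 and 3, and 0.85 to 1.16 for the wild type arrays. The weighted fit thus rested mostly on 1 ISR2 array, the lowest of all arrays for Acat1 and Pdk4.

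**Figure D1:**
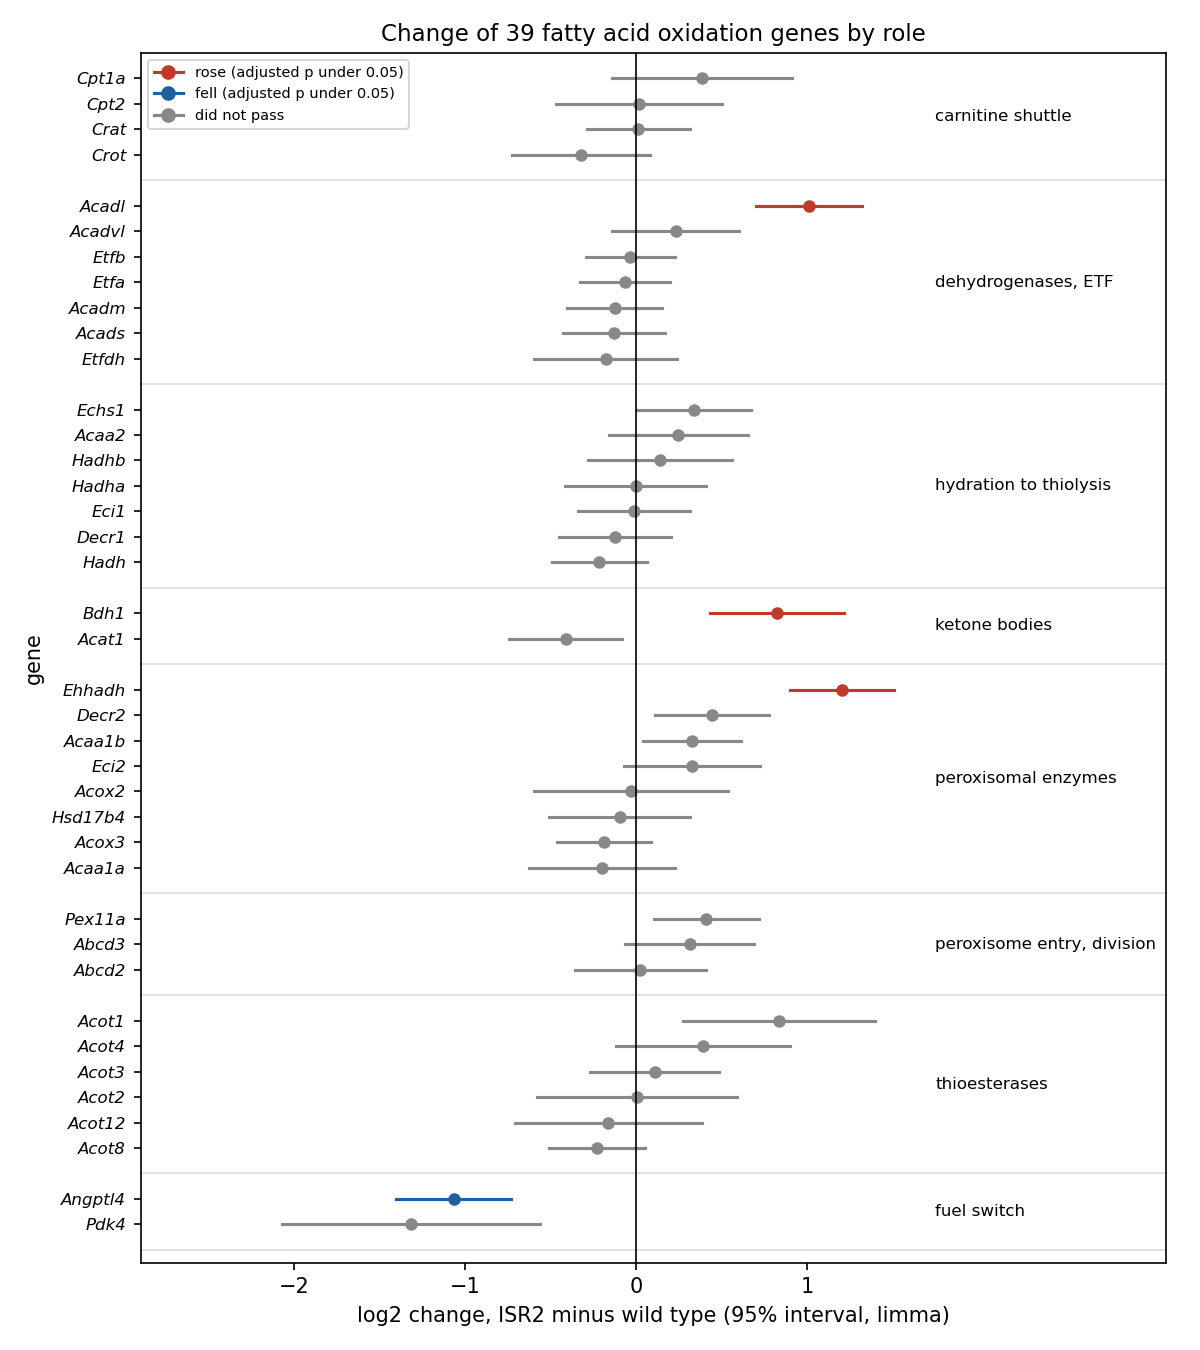
Log2 change (ISR2 minus wild type, horizontal axis) of each of the 39 genes, grouped by role, with the 95% interval from limma as a bar; red marks the 3 genes that rose, blue the 1 that fell and grey those that did not pass. Ehhadh, Acadl and Bdh1 lie to the right of the other members of their groups, Angptl4 and Pdk4 lie to the left, and most other intervals include 0.

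The separation of the arrays gave a wider set of genes than the test. In 8 of the 39 genes all ISR2 arrays lay above all wild type arrays (20.5%, beside 5.87% of all genes tested), and in 6 all lay below (15.4%, beside 13.9%). At an unadjusted p of 0.05, 8 genes of the list were higher and 3 lower, where 4.73% of all genes were higher and 8.4% lower. Over both directions, 19.8% of all genes had groups without overlap and 13.1% had an unadjusted p under 0.05. The 8 genes higher without overlap were Ehhadh, Acadl, Bdh1, Acot1, Decr2, Pex11a, Echs1 and Acaa1b. The 6 lower without overlap were Pdk4, Angptl4, Acat1, Acot8, Hadh and Acox3. The share of genes lower without overlap was thus near that of all genes.

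The arrays differed in their levels of cell type markers. Myh11, Acta2, Des and the other smooth muscle markers had a mean log2 level of 10.68 in wild type replicate 2 and 9.88 in ISR2 replicate 2, and between 7.28 and 7.93 in the remaining 4 arrays. Of the 7 smooth muscle genes measured, 0 passed in limma (0 at an unadjusted p of 0.05), and their summed log2 level was 51.0 to 74.7 in wild type arrays and 54.6 to 69.2 in ISR2 arrays. The enterocyte markers were high in every array. Their mean was lower in ISR2 for 10 genes and higher for 2, and 4 genes overlapped between the groups. Of 12 measured, 2 fell (Slc15a1 and Alpi), 8 were lower without overlap, and the summed log2 level was 150.5 to 150.7 in wild type arrays and 145.2 to 147.4 in ISR2 arrays. T cell markers fell in 5 of 9 measured genes, with sums of 67.3 to 72.4 and 58.7 to 63.6. Adipocyte markers, from tissue that also oxidises fatty acids, had 0 of 7 genes past the threshold in limma (1 at an unadjusted p of 0.05), sums of 37.5 to 38.4 and 36.0 to 41.5, and their highest mean in ISR2 replicate 2 (5.92). All markers measured had lower means in ISR2 for Paneth (5 genes), B and plasma (6), goblet (6) and pancreatic acinar cells (4). All 7 fibroblast and endothelial markers had higher means. None of these passed in limma (3 Paneth and 1 B and plasma cell marker had an unadjusted p under 0.05). Of all 19938 genes tested, 12473 had lower means. The myeloid, stem, enteroendocrine and striated muscle lists went both ways, with 1 call (Cd14, which rose). No background signal was used here, so none of these levels is shown to be above it. The part of these marker differences in the results was not tested, and fewer cells of a type cannot be told apart from less RNA per cell.

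Of the 8 peroxisomal enzyme genes measured, 1 rose. Ehhadh encodes the bifunctional enzyme that hydrates and dehydrogenates acyl-CoA in the peroxisome and is a well known PPAR alpha target. It stood at 10.00, 9.89 and 10.21 on the log2 scale in wild type replicates 1, 2 and 3, and at 11.16, 11.20 and 11.35 in the ISR2 replicates. The groups were about 1 unit apart, and neither spread over more than a small part of that distance. The change was 1.21 ± 0.13 (SE, 3 arrays per group; 95% interval 0.90 to 1.51), a 2.31-fold rise (adjusted p = 0.00122 in limma). It passed in all 17 other fits, with adjusted p between 0.000227 and 0.0113.

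The promoter of Ehhadh is shown because it was the only 1 of the 32 listed genes with a promoter in the RefSeq table that matched a sterol regulatory element, the sequence that SREBP factors bind. Below are the 250 bases before the start of Ehhadh (GRCm38.p6, chr16:21787835-21788084, minus strand) and of Acadl (GRCm38.p6, chr1:66863310-66863559, minus strand), 5′ to 3′, with motif matches in capitals; Acadl is the other rise that passed in every fit, and its window held no match.
Ehhadh: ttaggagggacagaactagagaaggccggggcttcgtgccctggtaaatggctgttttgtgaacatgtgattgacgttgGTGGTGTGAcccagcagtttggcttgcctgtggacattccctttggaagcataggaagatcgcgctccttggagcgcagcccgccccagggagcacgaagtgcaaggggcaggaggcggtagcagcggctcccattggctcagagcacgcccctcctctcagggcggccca
Acadl: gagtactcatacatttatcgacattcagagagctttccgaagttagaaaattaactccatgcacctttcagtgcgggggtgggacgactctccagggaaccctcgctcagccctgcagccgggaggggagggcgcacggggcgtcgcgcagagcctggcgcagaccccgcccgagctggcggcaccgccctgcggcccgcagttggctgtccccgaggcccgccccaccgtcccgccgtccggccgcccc

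The match in Ehhadh, GTGGTGTGA, is the reverse strand of TCACNCCAC and lies 171 to 163 bases before the start. That motif, searched on both strands, was found in 1.2% of the 15614 tested genes with a promoter in the table and in 1 of the 6 SREBP2 targets listed that had one. The direct repeat of AGGNCA with a spacer of 1 base, a form of the element bound by PPAR with its partner RXR and by HNF4A, was found in 0 of the 32 genes and in 0.371% of all. The E-box CACGTG was found in 1 of the 32, Acot4, and in 8.11% of all. The windows shown hold no match other than that in Ehhadh. A match describes letters in this window and is neither a shown binding site nor a cause. Bases outside the 250 were not searched, so a window without a match does not show that a gene lacks the element.

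None of the other 7 peroxisomal enzyme genes passed in limma (2 had an unadjusted p under 0.05), and their difference from Ehhadh was not tested. Decr2, the peroxisomal dienoyl-CoA reductase for unsaturated fatty acids, stood at 10.00, 9.73 and 9.86 in wild type and 10.08, 10.49 and 10.36 in ISR2. The groups did not overlap, but the gap between the nearest arrays was small, and the change of 0.45 ± 0.15 (SE) did not pass (adjusted p = 0.212 in limma). Acaa1b, a peroxisomal thiolase gene, was 7.57, 7.73 and 7.46 in wild type and 7.88, 7.86 and 8.01 in ISR2, again without overlap (0.33 ± 0.13, SE; adjusted p = 0.301 in limma). Its close copy Acaa1a, which encodes the other thiolase of this pair, differed by -0.20 ± 0.19 (SE) with overlapping groups. Signal shared between the probes of this pair was not tested. Acox3, an oxidase of branched acyl-CoA, was lower without overlap at -0.19 ± 0.12. Eci2, an enoyl-CoA isomerase, Hsd17b4, the bifunctional enzyme for branched and very long chains, and Acox2, the branched-chain oxidase of bile acid precursors, overlapped between groups with changes of 0.33, -0.10 and -0.03. Acox2 had the widest wild type spread of the list (SD 0.57), since wild type replicate 3 stood at 7.16 and the other wild type arrays at 8.20 and 8.10.

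Genes that bring fatty acids into peroxisomes or divide the organelle gave 0 calls among 3 measured in limma (1 had an unadjusted p under 0.05). Pex11a, which takes part in peroxisome division, was 9.15, 8.99 and 8.81 in wild type and 9.32, 9.51 and 9.35 in ISR2. The groups did not overlap (0.41 ± 0.14, SE; adjusted p = 0.215 in limma). Abcd3, a transporter of long-chain and branched acyl-CoA into the peroxisome, differed by 0.31 ± 0.17 (SE; adjusted p = 0.493 in limma). Abcd2, a transporter of very long-chain acyl-CoA, had values between 4.89 and 5.45 in all 6 arrays and was not shown to be above background; its change of 0.025 ± 0.17 (SE) turned sign in several alternatives.

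Of the 7 mitochondrial genes of the first oxidation step, 1 rose and 0 fell in limma (1 higher and 0 lower at an unadjusted p of 0.05). Acadl, the long-chain acyl-CoA dehydrogenase, stood at 10.07, 9.88 and 10.25 in wild type and at 10.98, 11.09 and 11.17 in ISR2. Every ISR2 array lay above every wild type array by more than either group's own range. The change was 1.01 ± 0.14 (SE; 95% interval 0.70 to 1.32), a rise of 2.02-fold (adjusted p = 0.00397 in limma). It also passed in all 17 other fits, with adjusted p of 0.000996 to 0.0292.

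The other acyl-CoA dehydrogenases, which differ in the chain length they take, had changes that did not pass. Acadvl, for very long chains, stood at 8.98, 8.99 and 9.22 in wild type and 9.14, 9.12 and 9.62 in ISR2, with overlap (0.23 ± 0.17, SE; adjusted p = 0.637 in limma). Acadm, for medium chains, was 10.42, 10.29 and 10.40 in wild type and 10.15, 10.22 and 10.36 in ISR2 (-0.13 ± 0.12, SE; 95% interval -0.40 to 0.15). Acads, for short chains, had nearly the same change (-0.13 ± 0.13). The difference between Acadl and these genes was not tested. The electron transfer flavoprotein genes Etfa and Etfb, which take the electrons from these enzymes, had changes of -0.06 and -0.03, and Etfdh, which passes the electrons to the respiratory chain, was at -0.18 ± 0.19 (SE).

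**Figure D2:**
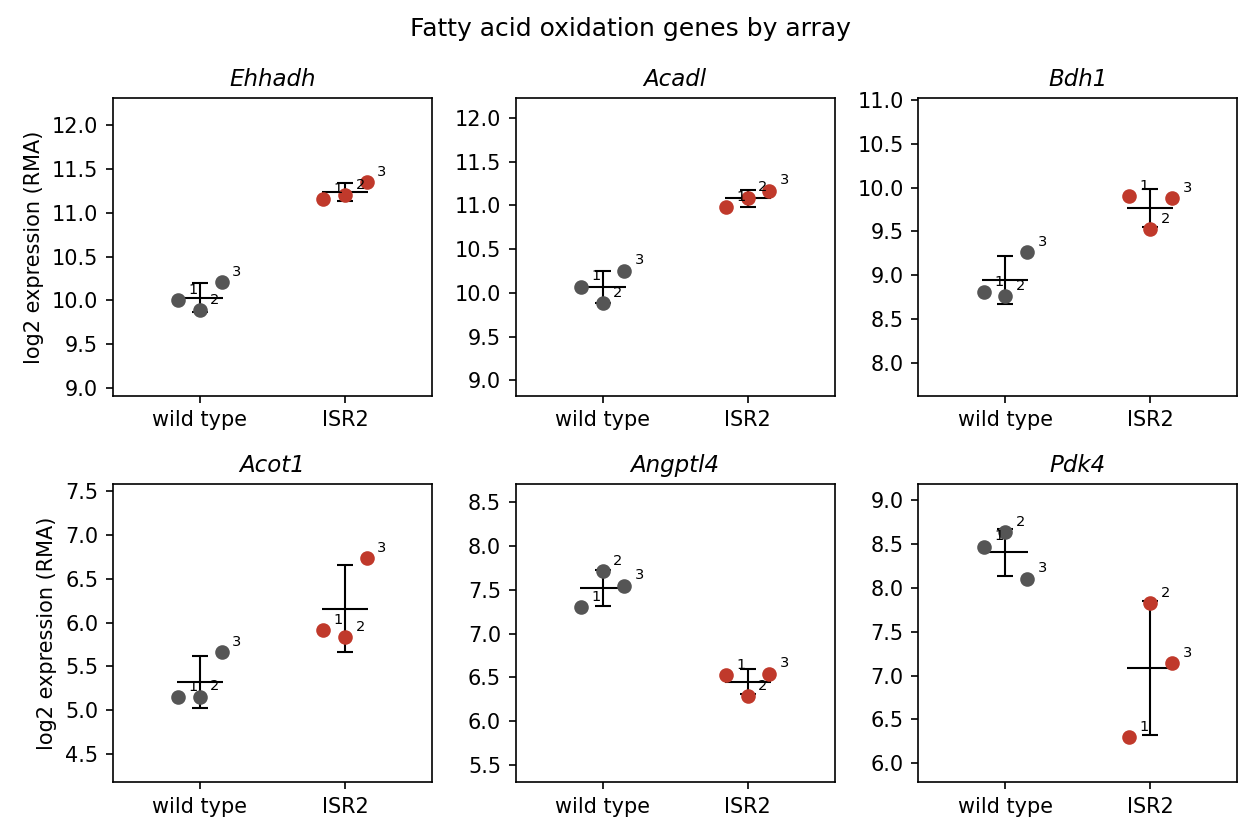
Log2 expression (RMA, vertical axis, each panel spanning the same number of log2 units) of 6 genes in the 3 wild type arrays (grey) and the 3 ISR2 arrays (red), numbered by replicate, with the mean as a horizontal line and the SD as a bar. Ehhadh, Acadl and Bdh1 are higher and Angptl4 lower in every ISR2 array, Pdk4 spreads from 6.29 to 7.83 in ISR2, and ISR2 replicate 3 is the highest array for Acot1.

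Genes of the carnitine shuttle, the entry step, showed no call among the 4 measured in limma (0 at an unadjusted p of 0.05). Cpt1a, the carnitine palmitoyltransferase of the outer membrane and the regulated entry point, stood at 9.59, 9.59 and 10.23 in wild type and 10.05, 9.89 and 10.63 in ISR2. The third array was the highest in each group and the groups overlapped (0.38 ± 0.23, SE; 95% interval -0.14 to 0.91; adjusted p = 0.563 in limma). Without ISR2 replicate 3 the change was 0.17, and without wild type replicate 3 it was 0.60. Crot, which makes carnitine esters of the chains that peroxisomes have shortened, was 10.24, 9.86 and 9.89 in wild type and 9.53, 10.01 and 9.48 in ISR2. ISR2 replicate 2 lay among the wild type arrays (-0.32 ± 0.18, SE; adjusted p = 0.514 in limma). Crat, the acetyltransferase that buffers acetyl-CoA, differed by 0.013 ± 0.13 (SE), and its sign turned in several alternatives. Cpt2, the inner membrane transferase, differed by 0.017 ± 0.21 (SE; 95% interval -0.47 to 0.50).

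The later mitochondrial steps, from hydration to thiolysis, also gave 0 calls in limma among 7 genes (1 at an unadjusted p of 0.05). That gene was Echs1, the short-chain enoyl-CoA hydratase, at 9.09, 8.94 and 8.95 in wild type and 9.18, 9.60 and 9.21 in ISR2. Its groups were separate, with ISR2 replicate 2 well above the rest (0.34 ± 0.15, SE; adjusted p = 0.371 in limma), and without that array the change was 0.20. Hadh, the hydroxyacyl-CoA dehydrogenase for medium and short chains, was 12.88, 12.70 and 12.72 in wild type and 12.45, 12.62 and 12.57 in ISR2. It was lower in every ISR2 array by a narrow margin (-0.22 ± 0.12, SE; adjusted p = 0.528 in limma).

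The trifunctional protein, which carries out the later steps on long chains, is made of the products of Hadha and Hadhb. Hadha differed by -0.0036 ± 0.18 (SE; 95% interval -0.42 to 0.41). Hadhb differed by 0.14 ± 0.19 with the probe set used and by 0.11 ± 0.20 with its other probe set. Acaa2, the mitochondrial thiolase gene, stood at 10.91, 10.75 and 11.07 in wild type and 10.93, 11.01 and 11.54 in ISR2 and overlapped (0.25 ± 0.18, SE; adjusted p = 0.65 in limma), with 0.057 left without ISR2 replicate 3. Decr1 and Eci1, which handle double bonds of unsaturated fatty acids, were at -0.12 ± 0.14 and -0.01 ± 0.14.

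Of the 2 genes of ketone body metabolism, Bdh1 rose and Acat1 did not pass. Bdh1, the dehydrogenase that interconverts acetoacetate and hydroxybutyrate, was 8.80, 8.76 and 9.26 in wild type and 9.90, 9.52 and 9.88 in ISR2. The lowest ISR2 array lay only a little above wild type replicate 3. The change was 0.83 ± 0.17 (SE; 95% interval 0.43 to 1.22), a rise of 1.77-fold (adjusted p = 0.0397 in limma). With all rows tested the gene missed the threshold, as it did without both replicate 2 arrays and when replicate 1 or 2 of wild type, or 1 or 3 of ISR2, was left out, and its adjusted p over all alternatives ran from 0.00328 to 0.187. Acat1, the mitochondrial acetoacetyl-CoA thiolase, was 9.64, 9.42 and 9.53 in wild type and 8.87, 9.23 and 9.25 in ISR2. It was lower without overlap, most in ISR2 replicate 1, and did not pass (-0.41 ± 0.15, SE; adjusted p = 0.246 in limma). With array weights it passed at an adjusted p of 0.0304, and over all alternatives its adjusted p reached 0.614.

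Acyl-CoA thioesterases release free fatty acid from CoA, and in mice several of them lie in a cluster of close copies. None of the 6 measured passed in limma, and 1 had an unadjusted p under 0.05. Acot1, the cytosolic member and a PPAR alpha target, was 5.15, 5.15 and 5.67 in wild type and 5.91, 5.84 and 6.73 in ISR2. All ISR2 arrays were higher, and replicate 3 was the highest of each group (0.84 ± 0.25, SE; 95% interval 0.27 to 1.40; adjusted p = 0.156 in limma, 0.0103 to 0.474 over the alternatives). Acot4, a peroxisomal member, was 6.87, 6.77 and 7.22 in wild type and 7.18, 6.996 and 7.85 in ISR2, with replicate 3 again the highest of each group and with overlap (0.39 ± 0.23, SE), and its change was 0.14 without ISR2 replicate 3. Acot8, another peroxisomal thioesterase, was 8.35, 8.30 and 8.30 in wild type and 8.19, 7.93 and 8.13 in ISR2, lower without overlap (-0.23 ± 0.12, SE). Acot2, the mitochondrial member, Acot3, a peroxisomal one, and Acot12, a cytosolic acetyl-CoA hydrolase, overlapped with changes of 0.0038, 0.11 and -0.16. The levels of Acot1 and Acot3 were not shown to be above background, and signal shared between copies was not tested.

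The 2 genes that mark a switch of fuel use were both lower. Angptl4 encodes a secreted inhibitor of lipoprotein lipase that fasting and PPAR factors are known to induce. It stood at 7.30, 7.71 and 7.55 in wild type and 6.53, 6.28 and 6.54 in ISR2. The ISR2 arrays were tightly grouped and well below the wild type arrays. The fall was -1.07 ± 0.15 (SE; 95% interval -1.40 to -0.73), or 2.10-fold (adjusted p = 0.00431 in limma). It passed in all 17 other fits, with adjusted p of 0.000864 to 0.0314.

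Pdk4 encodes the kinase that shuts pyruvate dehydrogenase and so spares glucose when fat is burned. It was 8.47, 8.64 and 8.11 in wild type and 6.29, 7.83 and 7.14 in ISR2. All ISR2 arrays were lower, but ISR2 replicate 2 lay close to wild type replicate 3, and the ISR2 spread (SD 0.77) was the widest in the list. The change of -1.32 ± 0.33 (SE; 95% interval -2.07 to -0.57), 2.49-fold by its measured means, did not pass (adjusted p = 0.0853 in limma). Without ISR2 replicate 2 the change was -1.69 and passed (adjusted p = 0.00966), and it also passed without both replicate 2 arrays (adjusted p = 0.0281), with a range of 0.0035 to 0.289 over all alternatives. It did not pass in 12 of the 17 other fits, 5 of the 6 with a single array left out among them, and without ISR2 replicate 1 the change was -0.92 (adjusted p = 0.175).

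**Figure D3:**
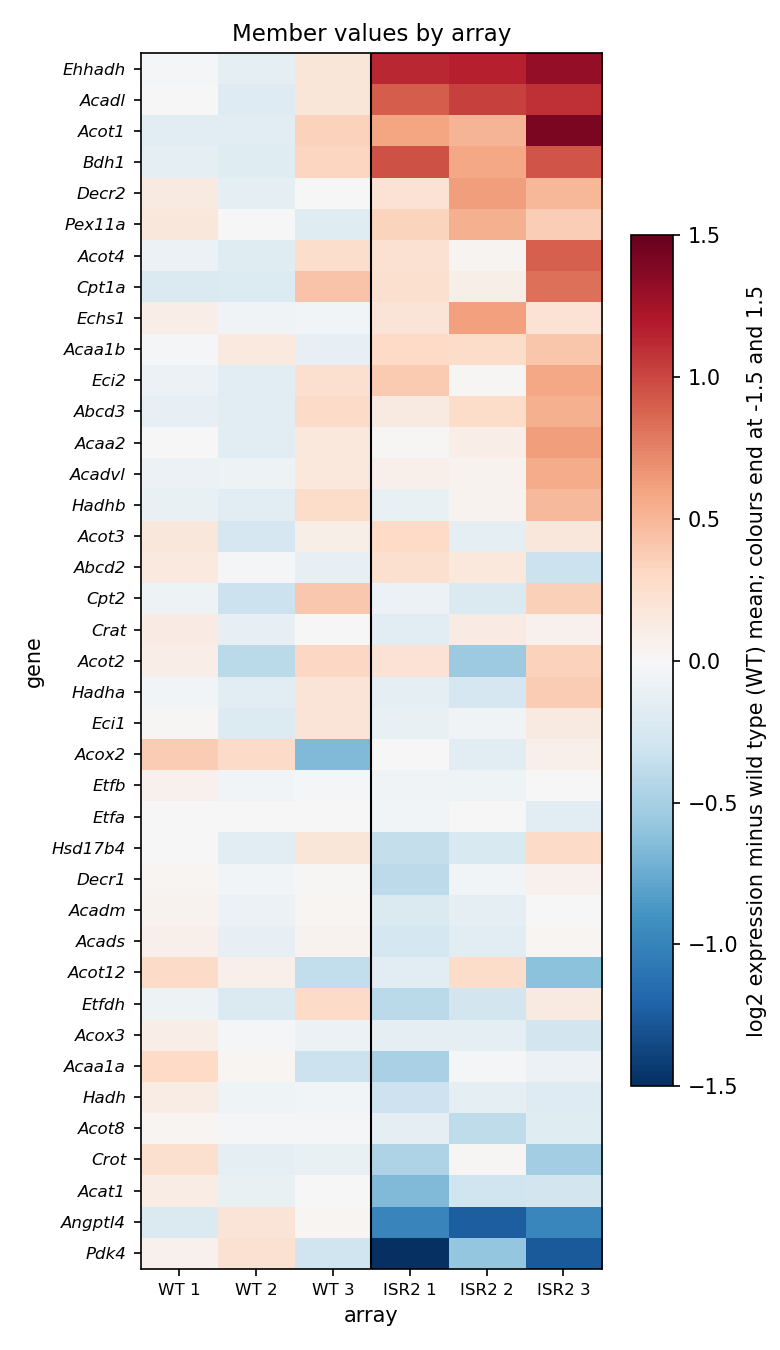
Log2 expression of the 39 genes (rows, ordered by their change) in each of the 6 arrays (columns) after subtraction of the wild type mean of the gene, as colour from blue (lower) to red (higher) that ends at -1.5 and 1.5. The top rows are red and the bottom rows blue in all ISR2 arrays, while the middle rows are pale and mixed; wild type replicate 2 is the lowest wild type array in 26 rows and ISR2 replicate 3 the highest ISR2 array in 24.

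The arrays of a group also differed among themselves over the list as a whole. Wild type replicate 2 was the lowest wild type array in 26 of the 39 genes, and ISR2 replicate 3 was the highest ISR2 array in 24. The mean log2 level of the list was 9.10, 8.97 and 9.12 in wild type replicates 1, 2 and 3 and 9.03, 9.10 and 9.27 in the ISR2 replicates. Group means of 9.06 ± 0.08 and 9.13 ± 0.12 (SD, n = 3) thus overlapped. Smooth muscle markers, given above, were highest in wild type replicate 2, the array with the lowest level of the list; in ISR2 they were highest in replicate 2, which was not the lowest. Without both replicate 2 arrays 2 genes rose (Acadl and Ehhadh) and 2 fell (Angptl4 and Pdk4).

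Genes of the same pathway outside the list were called at shares near the 3.02% of all genes tested, with 3.23% of the further oxidation genes and 4.17% of the genes of peroxisome assembly and alpha oxidation. Of 31 further genes of fatty acid oxidation measured, 1 rose and 0 fell, with a median change of 0.02 (at an unadjusted p of 0.05, 4 were higher and 4 lower). The rise was that of Echdc1, the decarboxylase that removes ethylmalonyl-CoA, a by-product of acetyl-CoA carboxylase. It went from 7.49, 7.35 and 7.80 in wild type to 9.12, 9.08 and 9.13 in ISR2 (1.56 ± 0.14, SE; adjusted p = 0.000377 in limma). Of 24 genes of peroxisome assembly and alpha oxidation measured, 1 rose and 0 fell (3 higher and 1 lower at an unadjusted p of 0.05). That was Hacl1, the lyase of alpha oxidation, at 7.30, 6.98 and 7.03 in wild type and 9.09, 9.60 and 9.10 in ISR2. Its change of 2.16 ± 0.17 (SE; adjusted p = 0.00014 in limma) was larger than that of any gene of the list. Echdc1 and Hacl1 passed in all 17 other fits.

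Among 25 regulators of the pathway measured, 6 rose, 0 fell and 19 did not pass in limma (7 were higher and 2 lower at an unadjusted p of 0.05). The share that rose was 24%, beside 1.79% of all genes tested, in a list written with earlier results of these data known. All 6 rises were genes of SREBP factors, lipins or acetyl-CoA carboxylases, and the median change of the list was -0.05. The share thus reflects which genes the list holds and does not describe regulators of oxidation at large. The regulators include Srebf2, the gene of the factor that is overactive in ISR2 mice. Whether its probe set also reads the transgene was not tested. The rises were those of Srebf2 itself (1.78 ± 0.16, SE), Srebf1 (1.67 ± 0.15), Lpin1 (4.08 ± 0.12), Acaca (2.86 ± 0.17), Acacb and Lpin2, the last pair named after their values were seen. Lpin1 and Lpin2 encode lipins, phosphatases of triglyceride synthesis that also act as coactivators in the nucleus. Acacb encodes the acetyl-CoA carboxylase at the mitochondrial surface, whose product malonyl-CoA inhibits the entry enzyme made from Cpt1a. It was 6.23, 6.31 and 6.31 in wild type and 7.08, 7.28 and 7.60 in ISR2, clear of overlap (1.04 ± 0.15, SE; adjusted p = 0.00569 in limma). Lpin2 passed with 0.56 ± 0.12 (SE; adjusted p = 0.0381 in limma), lost its call when any of the 6 arrays was left out, and ranged from 0.00748 to 0.171 over the alternatives. As a check of the labels, 8 of 8 measured SREBP2 targets rose, with a median change of 3.84.

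Ppara, Ppard, Pparg, Hnf4a, Ppargc1a and Ppargc1b, which encode nuclear receptors and coactivators of the pathway, did not pass. Ppara was 8.79, 8.55 and 8.55 in wild type and 9.01, 9.12 and 9.20 in ISR2, higher in every ISR2 array (0.48 ± 0.13, SE; adjusted p = 0.111 in limma). Ppargc1a, the coactivator of mitochondrial gene expression, was 9.91, 9.94 and 9.29 in wild type and 8.99, 9.21 and 9.28 in ISR2. ISR2 replicate 3 lay just below wild type replicate 3 (-0.55 ± 0.19, SE; adjusted p = 0.23 in limma), and without wild type replicate 3 it passed (adjusted p = 0.0416; 0.0326 to 0.61 over all alternatives). Ppard was at -0.38 ± 0.16 (SE), Pparg at -0.20 ± 0.15, Hnf4a at 0.15 ± 0.12 and Ppargc1b at -0.10 ± 0.15, the last of which turned to 0.05 without ISR2 replicate 2.

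Of 24 other known PPAR targets measured, 0 rose and 1 fell in limma (4.17%, beside 3.02% of all genes tested), with a median of -0.10 (4 higher and 4 lower at an unadjusted p of 0.05). With array weights 5 fell, and without ISR2 replicate 2, or without both replicate 2 arrays, 2 fell. The gene that fell was Vnn1, which encodes a pantetheinase, at 10.37, 9.79 and 10.04 in wild type and 7.10, 7.40 and 7.12 in ISR2. No array of either group came near the other (-2.86 ± 0.17, SE; adjusted p = 1.9e-05 in limma). Known PPAR targets were thus found among the rises (Ehhadh, Acadl) and among the falls (Angptl4, Vnn1).

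**Figure D4:**
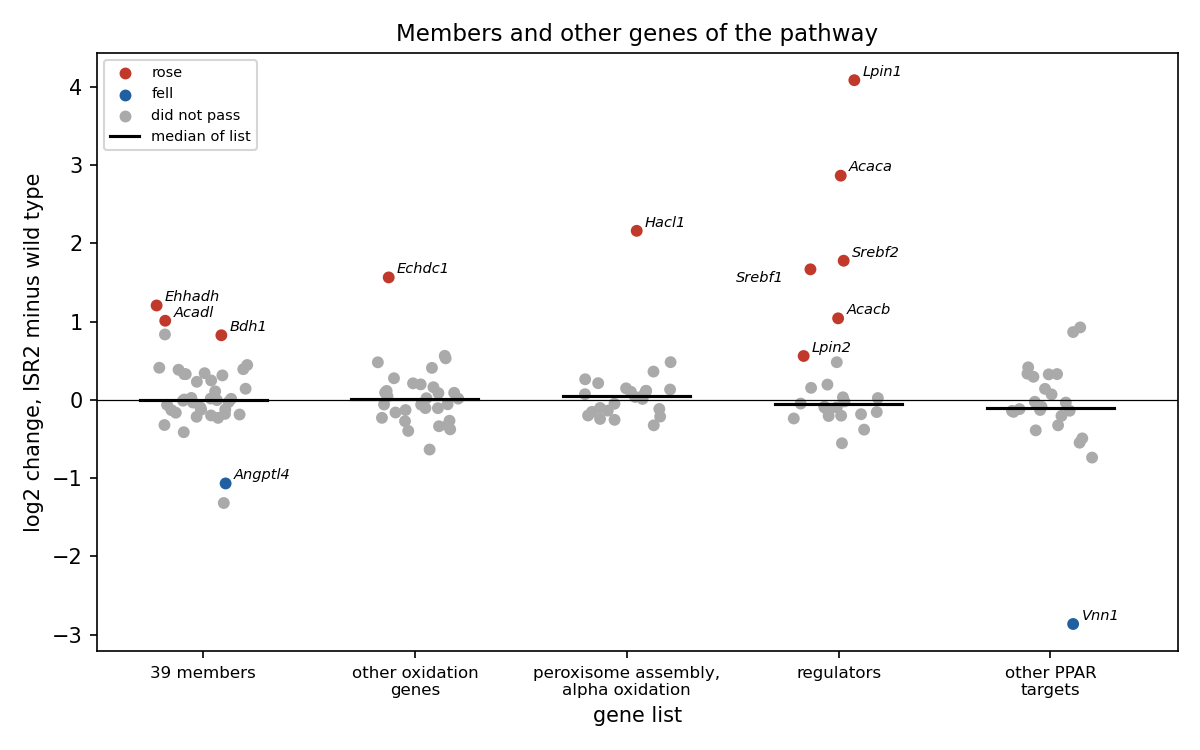
Log2 change (ISR2 minus wild type, vertical axis) of the 39 genes and of the genes of 4 other lists, 1 point per gene spread sideways at random, with a line at the median of each list; red and blue mark genes that rose or fell and carry their names. The medians of all lists lie between -0.10 and 0.05, and the named points stand apart from them, up to 4.08 for Lpin1 and down to -2.86 for Vnn1.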

How the data were processed

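Per the submitters' processing notes, the authors summarised the arrays with RMA. A log2 scale was taken for the deposited values because they run from 1.44 to 14.83. Total RNA was biotin labelled by the Affymetrix whole-transcript protocol, per the labels' protocols. RMA equalises array distributions, so changes shared by most genes are removed, and dim genes are compressed. Array medians were 6.04 to 6.19, and r between arrays over genes was 0.970 to 0.991.

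Of 35556 rows, 21789 had 1 symbol; per gene the probe set with the highest mean was used (19938 genes). ISR2 was fitted against wild type with limma 3.58.1 (lmFit, then eBayes; R version 4.3.3), with p two-sided, adjusted over all genes, and a threshold of 0.05. The steps were tested on simulated data. A planned comparison of protein sequences was not made. Figures used matplotlib 3.10.9.

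Genes, lists and tests were chosen with earlier results of these data known. Full values are given for genes past the threshold and up to 3 per role with the smallest p, for 7 regulators (Srebf2, Ppara, Ppard, Pparg, Ppargc1a, Ppargc1b and Hnf4a) and for up to 4 called genes per further list; Acacb and Lpin2 were added.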

Additional observations from a re-analysis of the deposited data

How the results depend on the processing

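Ehhadh, Acadl and Angptl4 kept direction and call in all 17 refits: array weights, quantile normalization, median centring, the robust option, an intensity trend, the upper part of genes by mean, all rows tested, the mean of probe sets, the replicate block, each of 6 arrays left out, and 2 pairs of arrays left out, which were chosen after seeing the data. The members that rose numbered 2 to 4. The members that fell numbered 3 with array weights, 2 with an adjusted p of 0.10, 2 without wild type replicate 3 and ISR2 replicate 2, 2 without both replicate 2 arrays, and 1 to 2 without 1 array at a time. Over all genes, 630 rose and 638 fell with array weights, 106 fell with all rows tested, 386 fell at 0.10, 472 rose and 303 fell when ISR2 replicate 2 and wild type replicate 3 were left out, and 159 fell without both replicate 2 arrays; without 1 array at a time 236 to 353 rose and 85 to 236 fell.

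Same-numbered arrays deviated from their group means with correlations of -0.016, 0.32 and 0.54 for replicates 1, 2 and 3 over all genes. Over the list these were 0.072, 0.54 and 0.67. Wild type replicate 1 correlated best with ISR2 replicate 2 (0.20 over all genes). The main fit did not take the numbers as pairs, and these correlations do not settle whether the arrays were paired. With the replicate block, 4 members rose (Acot1 added) and 2 fell (Pdk4 added).

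Crat turned to -0.092 with array weights, -0.0015 with quantile normalization, -0.039 without wild type replicate 3 and ISR2 replicate 2, -0.11 without both replicate 2 arrays, and between -0.051 and 0.095 without 1 array. Abcd2 turned to -0.10 and -0.053 without those pairs and lay between -0.083 and 0.20 without 1 array. Ppargc1b turned to 0.049 and 0.073 without those pairs and lay between -0.18 and 0.049 without 1 array. The cause was not tested. Whether Abcd2, Acot1 and Acot3 lay above background was not tested, and 3 arrays per group limit the precision.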
